A study of Homo sapiens with 12 samples.

Results

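Gene expression was compared between cells given erlotinib together with quinacrine and cells given erlotinib alone, at the same times of treatment. The comparison used 8 of the 12 arrays of the study: 4 arrays of cells in 1 µM erlotinib plus 3 µM quinacrine and 4 arrays of cells in 1 µM erlotinib, each taken at 6, 12, 24 and 48 h. Each combination array was set against the erlotinib array of its own time, and attention went to genes that moved in the same direction at all 4 times. All cells were NCI-H1975, an established human lung adenocarcinoma line whose labelled genotype is mutant EGFR (L858R/T790M), so both arms carried the same EGFR alleles. The other 4 arrays, 3 of cells in 3 µM quinacrine (6, 12 and 24 h) and 1 of untreated cells, are given beside these values for orientation. RNA was read on Affymetrix Human Gene 2.1 ST arrays, whose probes lie along the exons of each gene, and levels are log2 values, on which a difference of 1 is a doubling.

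Erlotinib blocks the ATP site of the EGFR kinase, and the T790M change is known for lowering the block it achieves. EGFR signals through the RAS, RAF, MEK and ERK kinases, whose activity drives early genes such as EGR1 and genes that feed back on the pathway, and through PI3K, AKT and mTORC1. Quinacrine is an acridine antimalarial that binds DNA and collects in lysosomes. It is known for holding the FACT complex, a histone chaperone made of SUPT16H and SSRP1, on chromatin and for lowering NF-kappaB activity. NF-kappaB is a family of transcription factors, kept in the cytoplasm by inhibitors such as NFKBIA, that drives genes of adhesion, chemokines and antigen presentation.

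No condition had a replicate array, so n counts time points and each arm has n = 4. A mean ± SD below is over the 4 times of an arm and holds real change with time as well as error. Separate dishes are not stated in the labels, so p-values cover the spread among these arrays only. In bulk RNA fewer cells of a type and less RNA per cell cannot be told apart. The combination array at 6 h stood apart from the other 11. Its median over the tested genes was 6.18, against 6.385 to 6.56 elsewhere, its interquartile range over all rows was 2.04, against 2.26 to 2.88, and its median correlation with the other arrays was 0.955, against 0.968 to 0.981. Epithelial genes were clear on the arrays, with mean levels in the erlotinib arm of 10.2 for CDH1, 8.56 for EPCAM and 7.30 for KRT7. The keratins KRT8 and KRT18 were lower, at means of 2.81 and 4.71 over the 12 arrays. Among lung genes, SFTPA1, SFTPB, SFTPC, SFTPD, SCGB1A1 and FOXA1 all had mean levels under 2 over the 12 arrays, and NAPSA was at 2.87. NKX2-1 and FOXA2, of the same lung list, had mean levels of at least 5. Of 15 measured markers of blood, immune, endothelial and stromal cells, 12 had mean levels below 3 in both arms. The other 3 were CD68, CD74 and HLA-DRA, at means of 8.82, 6.49 and 6.09 with erlotinib and 8.46, 6.27 and 5.80 with the combination. The log2 of the summed level of all 15, mostly that of CD68, was 9.20 to 9.52 with erlotinib and 8.91 to 9.33 with the combination.

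Of 5820 genes with a mean level of at least 5, 536 (9.21%) were higher with the combination at all 4 times and 834 (14.3%) were lower at all 4. The remaining 4450 changed direction or had a difference of 0 at some time. In 233 genes (4.0%) all 4 combination values lay above all 4 erlotinib values, and in 462 (7.94%) all lay below. The mean of the 4 time-matched differences was tested with limma on all 11 treated arrays, modelling treatment and time, with p-values adjusted over all 5820 genes. At an adjusted p under 0.05, 212 genes passed (3.64%), 83 higher (1.43%) and 129 lower (2.22%), while 1212 genes had an unadjusted p under 0.05. Below, rose and fell refer to the genes that passed. Counts within gene lists are to be read beside these shares of all tested genes. All 83 and all 129 kept their direction at every time, and in 70 and 120 of them the 4 values of one arm did not overlap those of the other. In 15 of the genes that rose the erlotinib mean, and in 14 of those that fell the combination mean, lay under the minimum of 5, so these genes were tested through the arrays in which they were higher. With no minimum, 5 of those 15 and 2 of those 14 passed by limma, beside 12 of the 83 and 11 of the 129. Of these genes with an arm under the minimum, and among those named below, IL24, CXCL16, IRF1, PXDC1, CYLD, GALNT11 and RXRA passed without it. CXCL8, GALR2, SPRY4, PRKAG1, RNF166 and ARHGEF39 did not. The loss was not limited to such genes: of 60 genes that passed and were named by rule, 42 did not pass without the minimum. A difference of at least 2-fold was reached by 19 of the genes that rose and 20 of those that fell.

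The common scale of the arrays moved with the 6 h comparison. The median difference over all 5820 genes went from -0.27 at 6 h through 0.14 and 0.04 to -0.02 at the later times, so that 20.8% of all genes were higher with the combination at 6 h and 68.2% at 12 h. Centring every array on its median moved the 6 h value from -0.27 to 0.08. After centring, 805 genes were higher and 767 lower at all 4 times, of which 427 and 574 were among the 536 and 834. Centred arrays gave 223 rises and 216 falls, and arrays normalized by cyclic loess gave 225 and 236, beside the 83 and 129 of the deposited values. The genes named as rising below passed on the centred values too, as did 120 of the 129 that fell.

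**Figure D1:**
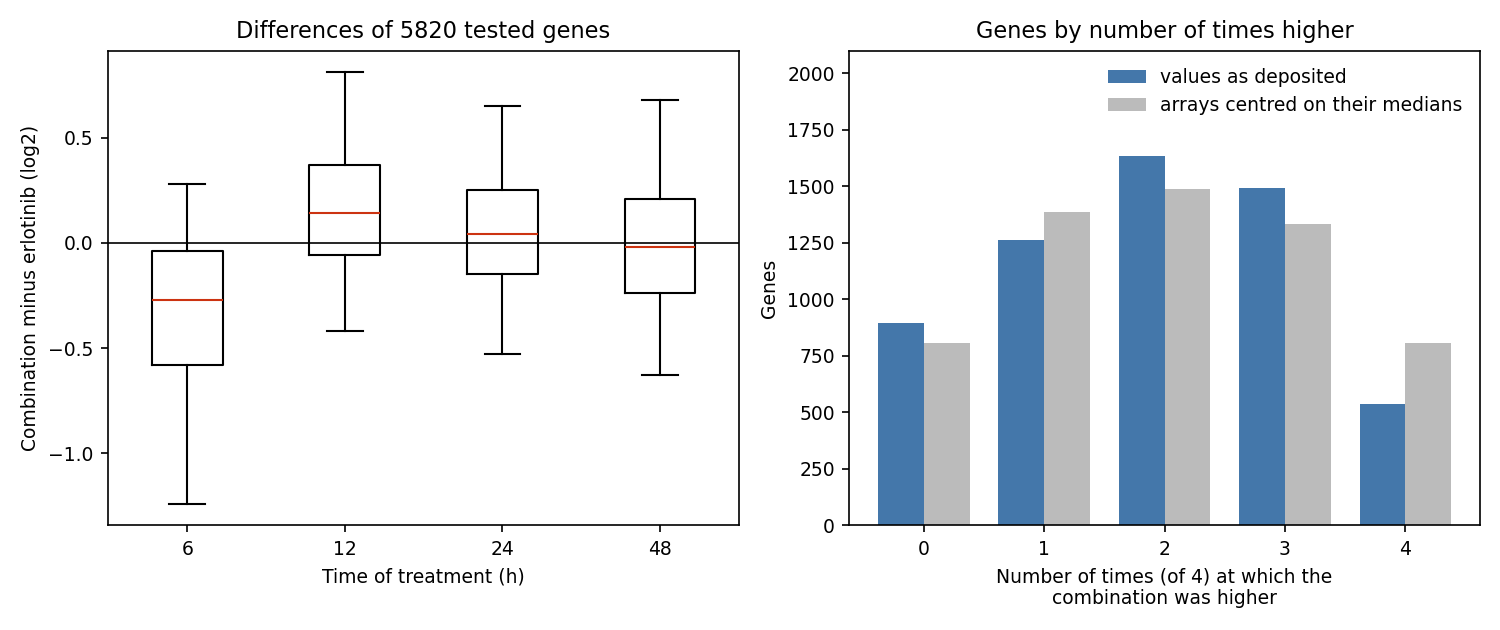
Left, combination minus erlotinib (log2) at each time for the 5820 tested genes, with boxes from the lower to the upper quartile, the median in red and whiskers from the 5th to the 95th percentile. Right, the number of genes by the number of times (0 to 4) at which the combination was higher, for deposited values (blue) and arrays centred on their medians (grey); the 6 h box lies lowest, at a median of -0.27, and 536 genes were higher at all 4 times as deposited against 805 after centring.

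IL24 and CXCL16 had the largest mean rises, and CCL2 and CXCL8, 2 more genes for secreted immune signals, rose as well. IL24, an interleukin-10 family cytokine, read 5.19, 4.65, 3.75 and 4.70 with erlotinib at 6, 12, 24 and 48 h, and 6.66, 7.66, 7.47 and 7.69 with the combination. All 4 combination values lay more than 1 log2 unit above the highest erlotinib value. The mean difference was 2.80 (SE 0.30), or 6.95-fold, with a limma adjusted p of 0.00672. Cells in quinacrine without erlotinib read 7.26, 7.63 and 7.42 at 6, 12 and 24 h, near the combination, and the untreated array 5.24. CXCL16, a chemokine that also exists as a membrane-bound scavenger receptor, stood at 3.66, 3.91, 4.21 and 4.04 under erlotinib and at 4.67, 6.05, 6.52 and 6.82 with the combination. Its difference widened at each later time and averaged 2.06 (SE 0.24, adjusted p = 0.00865). All 4 erlotinib values of CXCL16 were under the minimum level of 5, so it was tested through the arrays in which it was high, and with no minimum its limma adjusted p was 0.0213. The untreated value of CXCL16, 4.66, was level with the combination array at 6 h and above every erlotinib array. CCL2, which draws monocytes, was at 7.27, 7.05, 7.29 and 7.95 under erlotinib and at 8.04, 9.19, 9.70 and 9.32 with both compounds (difference 1.67, SE 0.24, adjusted p = 0.0188). CXCL8, which draws neutrophils, moved from 4.84, 4.30, 3.77 and 4.65 to 5.39, 5.23, 6.15 and 6.24 (difference 1.36, SE 0.28, adjusted p = 0.0397). CXCL8 too lay under 5 on all 4 erlotinib arrays, and with no minimum level it did not pass (adjusted p = 0.107). IL24 and CXCL16 were the members that rose among 9 tested cytokine genes outside the NF-kappaB target list. The arms did not overlap for CCL2 or CXCL8, although the nearest values of CCL2, 7.95 and 8.04, were only a short step apart.

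ICAM1, the ligand through which leukocyte integrins hold on to other cells, rose at every time. It read 7.41, 6.75, 6.74 and 7.12 with erlotinib and 8.51, 8.33, 8.50 and 8.78 with the combination, a mean of 7.0 ± 0.32 (SD, n = 4) against 8.53 ± 0.19 (SD, n = 4). The difference was 1.10 at 6 h and 1.58 to 1.76 at the later times, with a mean of 1.52 (SE 0.13, adjusted p = 0.00182). Quinacrine arrays gave 8.82, 8.33 and 8.69, and the untreated array, at 7.64, lay between the arms. IRF1, a transcription factor of interferon and NF-kappaB responses, stood at 4.95, 4.61, 4.73 and 5.10 under erlotinib and at 5.56, 5.60, 6.05 and 6.09 with the combination (difference 0.98, SE 0.13, adjusted p = 0.0186).

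These 4 genes, ICAM1, CCL2, CXCL8 and IRF1, were the members of a list of NF-kappaB target genes that rose, CXCL8 with the limit given above. Of the list's 35 genes 11 had levels high enough to be tested, none fell, and 6 were higher at all 4 times (9.21% over all tested genes). Testing depended on the level, so these counts hold for the 11 and not for the list. The median of the 11 was 0.63, against -0.03 over all tested genes, and by time it was 0.04, 0.56, 1.08 and 0.99, beside the -0.27, 0.14, 0.04 and -0.02 of all genes. TAP1, a peptide transporter gene, had a difference of 0.83 (SE 0.19, adjusted p = 0.0554), and BIRC2, an inhibitor of apoptosis, 0.48 (SE 0.14, adjusted p = 0.114). The 21 members under the filter were not tested, and those given here were picked outside the rule for named genes. CCL5, another chemokine, was listed at 2.85, 3.39, 2.94 and 4.04 with erlotinib and 4.03, 5.36, 7.09 and 6.99 with the combination. IL6 was at 3.68, 3.05, 2.56 and 2.68 against 3.36, 4.49, 4.67 and 4.92. Not all went this way: CXCL2 was lower with the combination at 6, 12 and 48 h, and LCN2 at 6, 24 and 48 h. VCAM1, the companion adhesion gene of ICAM1, was between 0.94 and 1.65 on all 8 arrays, and none of 16 tested genes in a list of adhesion and surface proteins passed by limma (median 0.07).

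Upstream sequence of genes that rose is shown for ICAM1, CXCL8 and IRF1 because they are the listed NF-kappaB targets with a letter match to a kappaB motif in the window; no window was matched for CCL2, which was not searched. The sequences are the 250 bases before the RefSeq transcription start (GRCh38.p14), 5′ to 3′ on the gene's strand, with motif matches in capitals.
ICAM1 (chr19:10270870-10271119, plus strand): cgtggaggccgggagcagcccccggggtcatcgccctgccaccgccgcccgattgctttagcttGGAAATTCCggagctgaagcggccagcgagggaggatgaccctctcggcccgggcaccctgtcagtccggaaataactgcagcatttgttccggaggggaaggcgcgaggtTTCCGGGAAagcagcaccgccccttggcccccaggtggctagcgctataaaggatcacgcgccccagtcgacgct
CXCL8 (chr4:73740319-73740568, plus strand): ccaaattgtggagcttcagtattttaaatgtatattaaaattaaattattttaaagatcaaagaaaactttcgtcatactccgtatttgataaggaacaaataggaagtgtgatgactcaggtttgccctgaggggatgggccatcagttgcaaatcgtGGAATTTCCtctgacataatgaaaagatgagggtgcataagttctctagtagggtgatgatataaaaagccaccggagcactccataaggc
IRF1 (chr5:132490774-132491023, minus strand): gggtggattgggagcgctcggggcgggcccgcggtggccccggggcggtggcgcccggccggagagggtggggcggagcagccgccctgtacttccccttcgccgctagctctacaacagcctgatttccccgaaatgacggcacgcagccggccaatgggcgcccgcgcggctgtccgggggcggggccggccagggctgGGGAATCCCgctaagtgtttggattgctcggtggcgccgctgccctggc
The ICAM1 window holds GGAAATTCC from 186 to 178 bases before the start and the STAT-type motif TTCCGGGAA from 75 to 67 bases before it. CXCL8 has GGAATTTCC from 91 to 83 bases before its start, and IRF1 has GGGAATCCC from 49 to 41. The motifs were chosen after the genes were known and were searched on both strands. Counts here and below cover each start's whole window as supplied, of which the first 250 bases are printed. A counted match may therefore lie outside such a stretch. GGAANTTCC occurred in 2 of 78 windows of genes that rose (2.56%), in 2 of 137 windows of genes that fell (1.46%), in 1.05% of the windows of tested genes and in 0.965% of all windows of the same length. GGGANTCCC was in 1 window of genes that rose (1.28%), 2 of genes that fell (1.46%), 0.884% of those of tested genes and 0.877% of all. A window was found for 60 of the 83 genes that rose and 104 of the 129 that fell, and several genes had more than 1 start.

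The NF-kappaB factors and their feedback inhibitors were a separate list of 10 tested genes, and none passed. TNFAIP3, a ubiquitin-editing enzyme that ends NF-kappaB signalling, read 7.41, 6.56, 5.53 and 5.76 with erlotinib and 7.53, 7.52, 8.14 and 8.70 with the combination, with an adjusted p of 0.0785 (difference 1.66, SE 0.43). NFKBIA was lower with the combination at 6 h (8.52 against 8.86) and higher afterwards (8.87, 9.49 and 9.89 against 8.42, 8.42 and 8.68; mean difference 0.60, SE 0.24, adjusted p = 0.211). NFKB1, which encodes the p50 subunit, had a mean difference of -0.02 (SE 0.19, adjusted p = 0.974) and RELA, which encodes p65, of -0.04 (SE 0.13, adjusted p = 0.893). The sign of NFKB1 turned on centred and loess values (0.02 in both), and its 4 differences had both signs. Outside that list CYLD, a deubiquitinase that restrains NF-kappaB signalling, rose from 5.15, 4.53, 4.73 and 5.28 to 6.03, 6.59, 6.14 and 6.08 (difference 1.29, SE 0.19, adjusted p = 0.019). MYD88, the adaptor of Toll-like and interleukin-1 receptors, was picked after its values were seen; it read 5.55 to 5.6 on the erlotinib arrays and 5.79 to 6.25 on the combination arrays (difference 0.53, SE 0.10, adjusted p = 0.0337).

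Other large rises came from genes of varied function. SNAPC1, a subunit of the complex that starts transcription of small nuclear RNA genes, stood at 6.41, 6.11, 6.02 and 5.87 under erlotinib and at 7.63, 7.70, 7.28 and 7.61 with the combination, a gain of 1.22 to 1.74 at every time (mean 1.45, SE 0.11, adjusted p = 0.00182). PXDC1 was at 5.27, 4.82, 4.84 and 4.90 against 6.40, 6.74, 6.56 and 6.85 (mean 1.68, SE 0.14, adjusted p = 0.00182). Both sets of 4 values lay clear of each other, with the untreated array (6.40 for SNAPC1, 5.13 for PXDC1) among or beside the erlotinib arrays. IFNGR2, a chain of the interferon-gamma receptor, read 5.06 to 5.46 with erlotinib and 5.91 to 6.44 with the combination (difference 0.89, SE 0.09, adjusted p = 0.00544). MICB, a stress-induced ligand of the NKG2D receptor of killer cells, read 6.73 to 7.10 against 7.56 to 7.86 (difference 0.86, SE 0.10, adjusted p = 0.00865). EMC3-AS1, an RNA antisense to EMC3 whose signal cannot be separated with certainty from an overlapping gene, read 4.68 to 5.45 against 6.13 to 6.28 (difference 1.08, SE 0.16, adjusted p = 0.0188). The rise of GALR2, a receptor of the neuropeptide galanin, was uneven. It gained only 0.29 at 6 h and 1.84 to 2.43 later (mean 1.73, SE 0.31, adjusted p = 0.031). Its erlotinib value at 6 h, 5.43, was its highest of that arm and just below the lowest combination value, 5.72.

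**Figure D2:**
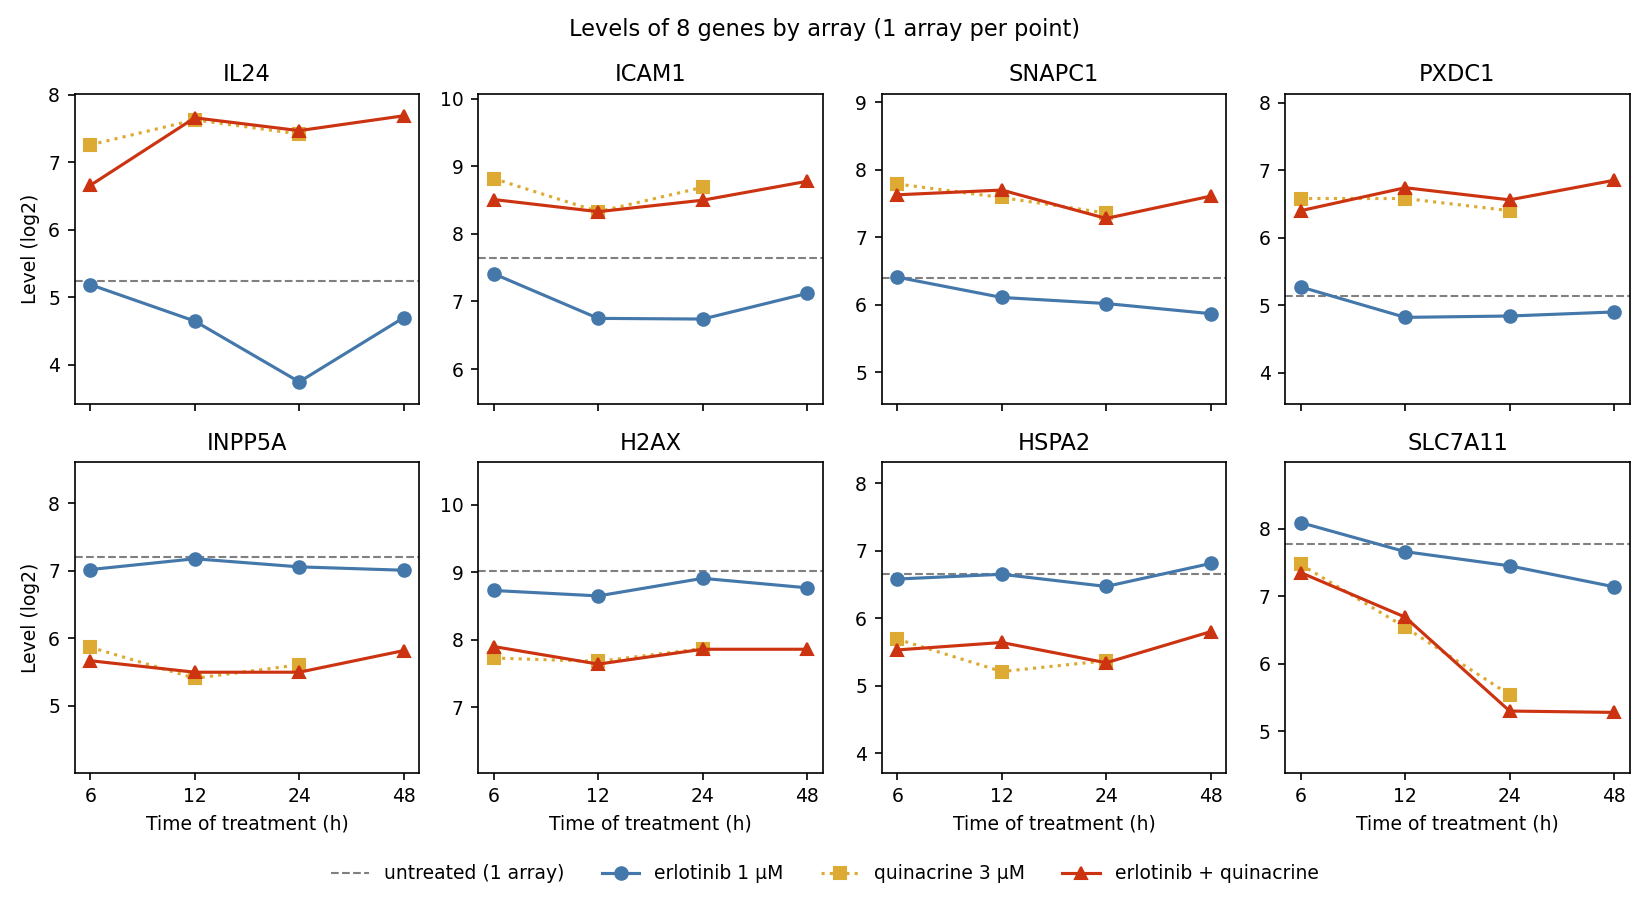
Level (log2) of 8 genes against time of treatment (h), 1 array per point, with erlotinib in blue, the combination in red, quinacrine in yellow and the untreated array as a dashed line; the panels have different midpoints and the same span. Red and blue points of IL24, ICAM1, SNAPC1, PXDC1, INPP5A, H2AX and HSPA2 do not overlap, while for SLC7A11 the combination array at 6 h (7.35) lies above the erlotinib array at 48 h (7.14).

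Of 27 tested interferon-response genes 25 had a mean difference above 0, beside 44.5% of all tested genes, and 1 passed, where 3.64% of all did. PARP14, an ADP-ribosyltransferase induced by interferon, read 6.30, 6.26, 6.77 and 7.27 with erlotinib and 6.39, 7.36, 8.40 and 8.51 with both compounds (difference 1.01, SE 0.22, adjusted p = 0.0436). Its combination value at 6 h, 6.39, lay within the erlotinib range, so the arms overlapped. The median of the list was -0.37, 0.34, 1.38 and 1.06 at the 4 times and 0.66 on average. At all 4 times 7 members were higher and none was lower, beside 9.21% and 14.3% of all tested genes. IFI6 had differences of 0.40, 0.34, 1.38 and 1.77 (adjusted p = 0.0904), and IFIT1, which binds viral RNA, of -0.59, 0.01, 1.89 and 1.04 (adjusted p = 0.438). Of 10 tested genes of antigen presentation, HLA-C and HLA-E rose. HLA-E, a class I molecule read by killer cell receptors, was at 7.42, 7.57, 7.60 and 7.73 under erlotinib and at 7.87, 7.96, 8.24 and 8.69 with the combination (difference 0.61, SE 0.11, adjusted p = 0.0328). HLA-C was at 8.54, 8.52, 8.63 and 8.83 against 8.98, 8.87, 9.20 and 9.60 (difference 0.53, SE 0.10, adjusted p = 0.0337). Class I genes are similar in sequence, so part of either signal may belong to a sister gene.

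The upstream window of PARP14 is printed because it holds matches to motifs of interferon-responsive genes; the source and format are as for ICAM1.
PARP14 (chr3:122680589-122680838, plus strand): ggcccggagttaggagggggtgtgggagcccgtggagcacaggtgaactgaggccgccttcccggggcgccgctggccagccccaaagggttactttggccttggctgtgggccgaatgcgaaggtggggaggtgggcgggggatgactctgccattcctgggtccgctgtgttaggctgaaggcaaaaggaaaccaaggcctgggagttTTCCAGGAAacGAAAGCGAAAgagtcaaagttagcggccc
TTCCAGGAA lies from 40 to 32 and GAAAGCGAAA from 29 to 20 bases before the start. The form TTCCNGGAA was in 3 windows of genes that rose (3.85%), 0 of genes that fell, 1.17% of those of tested genes and 1.15% of all windows. The interferon-stimulated response element, searched as GAAA and GAAA with any 2 bases between them, was likewise in 3 windows of genes that rose (3.85%) and 0 of genes that fell, in 2.86% of those of tested genes and 3.57% of all.

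Genes induced by ERK activity gave the list with the most rises, 7 of 21 tested (1.43% over all tested genes), with none that fell. Its median was 0.45 over the 4 times, and -0.08, 0.48, 0.55 and 0.86 at 6, 12, 24 and 48 h. The feedback regulators DUSP5, a nuclear ERK phosphatase, and SPRY4, an inhibitor of receptor tyrosine kinase signalling, both rose. DUSP5 read 6.59, 5.74, 6.53 and 6.73 with erlotinib and 6.79, 6.86, 7.19 and 7.66 with the combination (difference 0.73, SE 0.14, adjusted p = 0.0349). SPRY4 read 5.23, 4.24, 4.56 and 5.55 against 5.57, 5.28, 5.65 and 6.26 (difference 0.80, SE 0.14, adjusted p = 0.0319), with arms that overlapped. Its erlotinib mean, 4.895, lay under the minimum level of 5, and with no minimum SPRY4 did not pass by limma (adjusted p = 0.0899). Among the transcription factors, EGR1 was at 5.75, 5.37, 5.30 and 5.14 against 6.23, 5.71, 6.20 and 6.44 (difference 0.76, SE 0.17, adjusted p = 0.0479), JUNB rose by 0.58 (SE 0.12, adjusted p = 0.035) and KLF10 by 0.81 (SE 0.13, adjusted p = 0.0242). EPHA2, an ephrin receptor, rose by 0.70 (SE 0.12, adjusted p = 0.0266). SPHK1, which makes sphingosine 1-phosphate, was at 5.83, 5.24, 5.71 and 5.42 with erlotinib and climbed from 6.08 at 6 h to 7.38 at 48 h with the combination (difference 1.09, SE 0.23, adjusted p = 0.0397). CCND1 and MYC, also ERK-induced, did not pass. CCND1 read 7.65, 7.27, 7.42 and 7.51 with erlotinib and 7.15, 7.35, 7.80 and 8.35 with the combination (difference 0.20, SE 0.19, adjusted p = 0.612), and MYC had a mean difference of -0.01 (SE 0.14, adjusted p = 0.985), whose sign turned to 0.03 on centred values. EGFR itself was at 8.46, 8.25, 8.24 and 8.18 against 7.76, 8.21, 8.45 and 8.55, lower at 6 and 12 h and higher at 24 and 48 h (difference -0.04, SE 0.16, adjusted p = 0.923).

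The EGR1 window is shown because it holds 2 matches to a form of the serum response element motif, to which SRF binds.
EGR1 (chr5:138465229-138465478, plus strand): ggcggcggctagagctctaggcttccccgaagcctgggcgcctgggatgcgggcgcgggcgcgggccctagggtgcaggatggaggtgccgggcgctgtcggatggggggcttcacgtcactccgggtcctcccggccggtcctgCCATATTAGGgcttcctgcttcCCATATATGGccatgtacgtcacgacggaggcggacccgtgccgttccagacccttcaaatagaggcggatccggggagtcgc
CCATATTAGG lies from 105 to 96 and CCATATATGG from 83 to 74 bases before the start. The form searched, CCATAT and GG with any 2 bases between them, was in 2 of the 78 windows of genes that rose (2.56%), those of EGR1 and SRF. It was in 0 of those that fell, in 0.285% of the windows of tested genes and in 0.365% of all. This form was chosen with EGR1 already known, and EGR1 is itself counted, so the shares are a description and no test. SRF, named after its value was seen, read 7.58 to 7.79 with erlotinib and 8.02 to 8.18 with the combination (difference 0.45, SE 0.09, adjusted p = 0.0401).

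Other rises fell in lists of which few members passed. F3, the tissue factor that starts blood clotting and a YAP target, dropped over time with erlotinib (6.85, 6.55, 5.89 and 5.63) and climbed with the combination (7.30, 7.51, 7.71 and 8.04), so the difference went from 0.45 to 2.41 (mean 1.41, SE 0.28, adjusted p = 0.035). NUAK2, a kinase related to AMPK, was the other of 17 tested YAP targets that rose (6.38, 5.41, 5.57 and 5.65 against 6.73, 6.82, 7.03 and 6.97; difference 1.14, SE 0.21, adjusted p = 0.0333). TXNIP, which binds thioredoxin and lowers glucose uptake, was the 1 of 4 tested FOXO targets that rose (7.26, 6.97, 6.98 and 7.63 against 7.69, 8.24, 8.22 and 8.63; difference 0.98, SE 0.15, adjusted p = 0.0211). KRT80, a keratin, was the 1 of 13 epithelial genes (difference 0.92, SE 0.20, adjusted p = 0.0473), and it no longer passed when the 6 h arrays were left out (0.95). DPP4, a surface peptidase that trims chemokines, differed by 0.37 at 6 h and 1.08 to 1.80 later, and its arms overlapped (difference 1.25, SE 0.25, adjusted p = 0.0347). A further 4 genes that rose at least 2-fold were picked after their values were seen. IGFBP4, which binds insulin-like growth factors, rose 2.13-fold, the lipolysis inhibitor G0S2 2.12-fold, NOCT, a circadian phosphatase, 2.06-fold, and uridine phosphorylase UPP1 2.05-fold, with adjusted p from 0.0188 to 0.0337. 

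**Figure D3:**
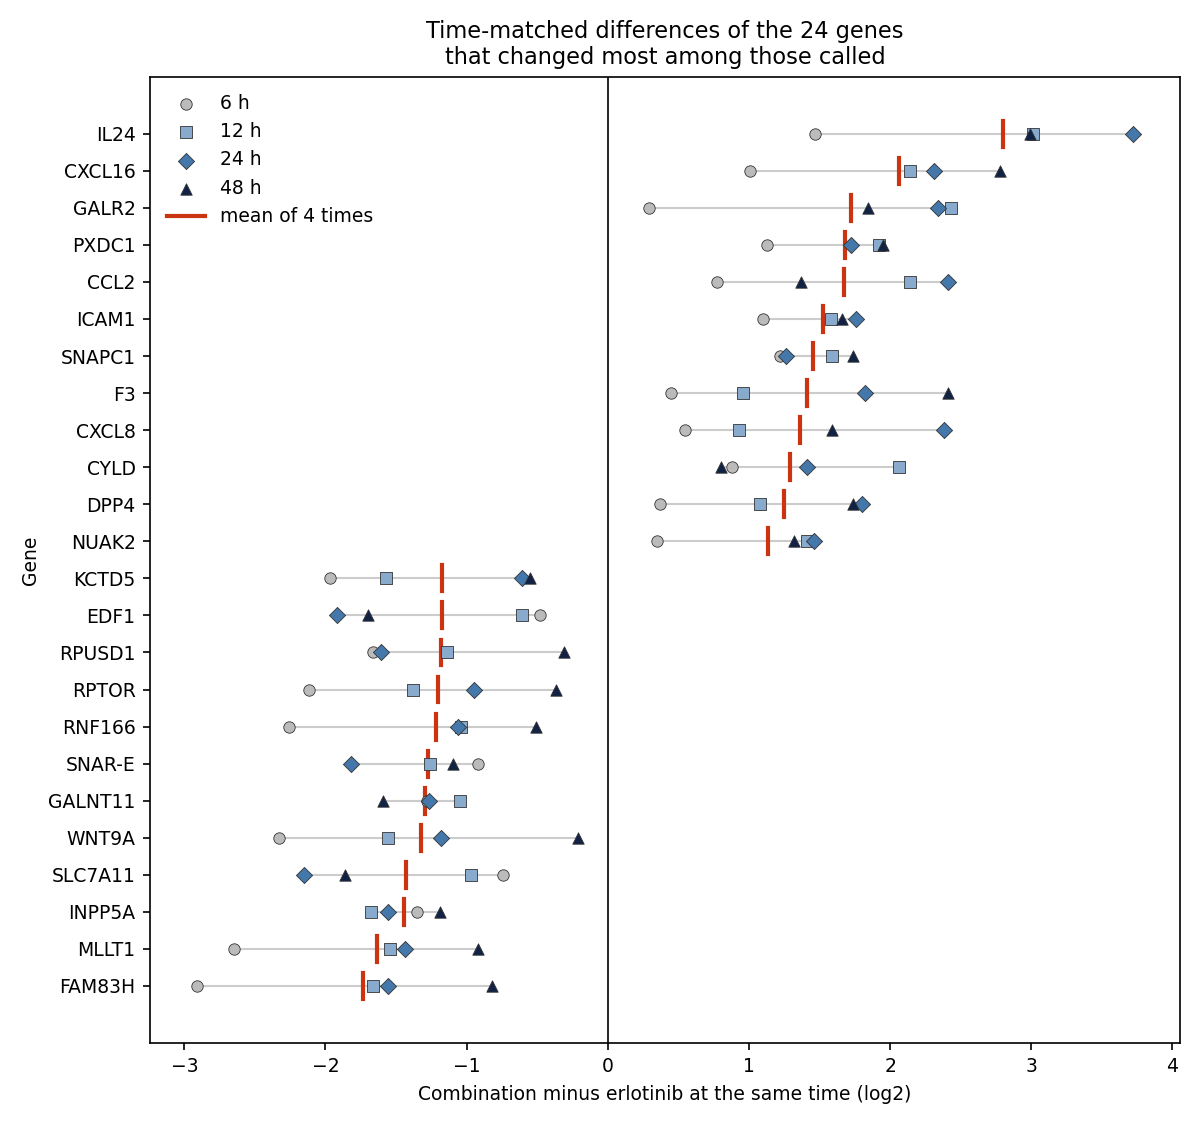
Combination minus erlotinib (log2) at 6, 12, 24 and 48 h (grey circle, light square, blue diamond, dark triangle) for the 12 largest rises and 12 largest falls that passed, with the mean of the 4 times as a red bar. Every point of the 12 upper genes is above 0 and every point of the 12 lower genes below 0; the 6 h point is the smallest gain for most rises and the largest drop for FAM83H, MLLT1, WNT9A, RNF166 and RPTOR.

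INPP5A had the smallest p of the genes that fell, and its smallest drop over the 4 times was larger than that of any other. This phosphatase, which ends the calcium signal of inositol trisphosphate, read 7.02, 7.18, 7.06 and 7.01 with erlotinib and 5.67, 5.50, 5.50 and 5.82 with the combination. The difference lay between -1.68 and -1.19 at every time (mean -1.45, SE 0.12, adjusted p = 0.00182). Quinacrine arrays stood at 5.87, 5.41 and 5.61, and the untreated array, at 7.21, just above the erlotinib arm. It was the 1 gene of 18 tested in the inositol phosphate list that passed. GALNT11, which starts mucin-type sugar chains, was at 5.74, 5.75, 5.68 and 5.94 against 4.46, 4.70, 4.41 and 4.35 (difference -1.30, SE 0.17, adjusted p = 0.018), and its relative GALNT10 fell by 0.57 (SE 0.11, adjusted p = 0.033). The other 15 tested glycosylation genes did not pass, and the list median was -0.14.

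FAM83H, a scaffold of casein kinase 1 and keratin filaments, had the largest mean fall. It read 7.30, 7.12, 6.94 and 6.96 with erlotinib and 4.39, 5.46, 5.38 and 6.14 with the combination (difference -1.74, SE 0.27, adjusted p = 0.0227). MLLT1, a reader of acetylated histones in elongation complexes, read 7.92, 8.04, 8.30 and 8.14 against 5.27, 6.50, 6.86 and 7.22 (difference -1.64, SE 0.28, adjusted p = 0.0291). In both genes the gap was widest at 6 h, the time of the array that stood apart, and narrowed to -0.82 and -0.92 at 48 h. Over 12, 24 and 48 h alone the mean differences were -1.35 and -1.30 and both genes still passed. MLLT1 was the 1 of 18 tested elongation genes that passed. WNT9A, a secreted WNT ligand, narrowed from -2.33 at 6 h to -0.21 at 48 h (mean -1.32, SE 0.30, adjusted p = 0.0489), and its value without the combination array at 6 h, -1.14, did not pass. LRP5, a WNT co-receptor, fell by 0.68 (SE 0.11, adjusted p = 0.0218). The other 13 tested WNT genes did not pass, and the list median was -0.15.

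Of 19 tested redox and cystine genes, SLC7A11 and SLC7A5 fell. SLC7A11, which brings in cystine for glutathione, was at 8.09, 7.66, 7.45 and 7.14 under erlotinib and at 7.35, 6.69, 5.30 and 5.28 with both compounds. Each later erlotinib array was lower than the one before it, and the gap went from -0.74 at 6 h to -2.15 at 24 h and -1.86 at 48 h (mean -1.43, SE 0.23, adjusted p = 0.0242). Quinacrine arrays followed the same course, at 7.47, 6.54 and 5.54. SLC7A5, which carries leucine and other large amino acids, was at 11.73, 11.60, 11.71 and 11.40 against 11.24, 11.07, 10.99 and 10.91 (difference -0.56, SE 0.11, adjusted p = 0.0337). The other 17 did not pass, and the list median, -0.06, was close to that of all genes. Of 26 tested ATF4 targets and tRNA synthetases 3 fell and 12 were lower at all 4 times, beside 2.22% and 14.3% of all tested genes. The median of the 26 was -0.16. XPOT, the exporter of tRNA from the nucleus, read 8.02, 8.01, 7.82 and 7.94 against 7.52, 6.96, 6.71 and 6.75 (difference -0.96, SE 0.14, adjusted p = 0.0188). EPRS1, the glutamyl-prolyl-tRNA synthetase, fell by 0.66 (SE 0.11, adjusted p = 0.0257) and PSAT1, a serine synthesis enzyme, by 0.51 (SE 0.10, adjusted p = 0.0337).

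RPTOR, the subunit through which mTORC1 holds its substrates, was among the 12 largest falls. It stood at 6.80, 6.75, 6.87 and 6.65 under erlotinib and at 4.68, 5.37, 5.92 and 6.28 with the combination, narrowing with time (mean -1.21, SE 0.23, adjusted p = 0.0337; -0.90 over 12, 24 and 48 h). Other genes of mTORC1 and its regulators were collected after RPTOR was seen, so the count is a description. With RPTOR itself counted, 14 were tested, 5 fell and none rose, where 2.22% of all tested genes fell. MLST8, a further mTOR subunit, read 7.06 to 7.33 with erlotinib and 6.12 to 6.75 with the combination (difference -0.78, SE 0.14, adjusted p = 0.0319). PRKAG1, a subunit of AMPK, had differences of -0.72, -0.83, -0.85 and -0.63 (SE 0.10, adjusted p = 0.0186). NPRL3 and TSC2, which hold mTORC1 back, differed by -0.72 (SE 0.14, adjusted p = 0.0337) and -0.64 (SE 0.14, adjusted p = 0.0473). TSC2 passed in 0 of the 11 fits that each left out 1 array, and NPRL3 in 3. MTOR itself had a difference of -0.15 (SE 0.13, adjusted p = 0.563).

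Of 14 tested histone genes, 3 fell, beside 2.22% of all tested genes. H2AX, the histone variant phosphorylated at DNA breaks, read 8.73, 8.65, 8.91 and 8.77 with erlotinib and 7.90, 7.64, 7.86 and 7.86 with the combination (difference -0.95, SE 0.09, adjusted p = 0.00345). The means were 8.77 ± 0.11 and 7.82 ± 0.12 (SD, n = 4 each), and the gap, 0.83 to 1.05, was larger than the SD within either arm. The linker histone gene H1-4 (11.40, 11.42, 11.51 and 11.69 against 10.34, 10.54, 11.01 and 10.97) and H2AC21 (10.37, 10.43, 10.53 and 10.61 against 9.84, 10.00, 10.16 and 9.93) also fell, by 0.79 (SE 0.15, adjusted p = 0.0319) and 0.50 (SE 0.09, adjusted p = 0.033). Clustered histone genes have near-identical copies, so these 2 signals may be shared. The other 11 did not pass, and the list median was -0.18. CHAF1A, the large subunit of a chaperone that deposits histones behind the replication fork, was at 6.37, 6.40, 6.48 and 6.80 against 4.52, 5.67, 5.83 and 6.13 (difference -0.97, SE 0.20, adjusted p = 0.0389; -0.68 over 12, 24 and 48 h), the 1 of 9 tested histone chaperone genes that passed. It passed in 2 of the 11 fits that each left out 1 array. The FACT subunits did not pass: SUPT16H read 8.42 to 8.61 with erlotinib and 8.31 to 8.46 with the combination (difference -0.11, SE 0.10, adjusted p = 0.587), and SSRP1 7.99 to 8.34 against 7.92 to 8.27 (difference -0.17, SE 0.13, adjusted p = 0.476).

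CDT1, which loads the replicative helicase, was the 1 of 48 tested G1/S genes that fell (7.97, 8.04, 8.38 and 7.88 against 6.59, 7.41, 7.62 and 7.52; difference -0.78, SE 0.15, adjusted p = 0.0347). It passed in 2 of those 11 fits, and 1 of 48 is near the 2.22% of all tested genes that fell. Of the same list 15 were lower at all 4 times and 10 after centring, beside the 14.3% of all tested genes given above, and the median was -0.12. None of 47 tested G2/M genes passed by limma, where 1 was higher and 6 were lower at all 4 times, beside 9.21% and 14.3% of all tested genes. CDK1, the mitotic kinase, read 5.56 to 5.74 against 5.24 to 5.50 (difference -0.23, SE 0.10, adjusted p = 0.252). SKP2, the ubiquitin ligase subunit that marks the CDK inhibitor p27, was picked after its value was seen. It read 8.47, 8.42, 8.39 and 8.19 with erlotinib and 7.71, 7.75, 7.52 and 7.24 with the combination (difference -0.81, SE 0.09, adjusted p = 0.00867). CDKN1B, which encodes p27, had a difference of 0.47 (SE 0.21, adjusted p = 0.241). POLH, a lesion-bypass polymerase, was the 1 of 10 tested p53 targets that passed. It fell by 0.62 (SE 0.14, adjusted p = 0.0473) and passed in 0 of the 11 fits.

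Among stress and metabolic genes, 1 member per list fell. HSPA2, a member of the HSP70 family outside the fixed heat shock list, read 6.58, 6.65, 6.47 and 6.81 with erlotinib and 5.53, 5.64, 5.34 and 5.80 with the combination (difference -1.05, SE 0.12, adjusted p = 0.00837). DNAJB1, an HSP40 partner of HSP70, was the 1 of 11 tested heat shock genes that fell (7.30 to 7.38 against 6.26 to 6.90; difference -0.64, SE 0.13, adjusted p = 0.0337). HERPUD1, of endoplasmic reticulum degradation, was the 1 of 16 unfolded-protein genes (difference -0.60, SE 0.13, adjusted p = 0.0427), while the chaperone HSPA5 had a difference of -0.35 (adjusted p = 0.0817). FASN, fatty acid synthase, read 8.81, 8.76, 9.05 and 9.27 against 8.24, 8.31, 8.40 and 8.45 (difference -0.62, SE 0.10, adjusted p = 0.0242), the 1 of 20 tested lipid synthesis genes that passed. The median of the 20 was 0.48 at 12 h and -0.65 at 48 h, beside 0.14 and -0.02 for all genes, and the limma test of change with time, given below, called 0 genes. SGSH, a lysosomal sulfatase, was the 1 of 27 tested lysosome genes that fell (difference -0.51, SE 0.09, adjusted p = 0.0319), and 7 others were higher at all 4 times without passing. BOK, a BCL2 family member that can open mitochondria, was at 8.40, 8.22, 8.27 and 7.93 against 6.82, 6.89, 6.97 and 7.51 (difference -1.16, SE 0.18, adjusted p = 0.0206), the 1 of 9 tested apoptosis genes that passed.

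The remaining large falls were scattered over functions. RXRA, the shared partner of many nuclear receptors, read 6.05, 5.75, 6.31 and 6.35 against 5.03, 4.90, 4.67 and 5.29 (difference -1.14, SE 0.14, adjusted p = 0.00981). EDF1, a transcription and ribosome-associated factor, was at 9.53, 9.41, 9.68 and 9.53 against 9.05, 8.80, 7.76 and 7.83, with wider gaps at 24 and 48 h (difference -1.18, SE 0.26, adjusted p = 0.0482). KCTD5, a cullin-3 adaptor, showed the reverse course, from -1.97 at 6 h to -0.55 at 48 h (mean -1.18, SE 0.24, adjusted p = 0.0397), and without the combination array at 6 h its value was -1.01 and did not pass. The pseudouridine synthase-like gene RPUSD1 fell by 1.18 (SE 0.21, adjusted p = 0.0292), the ubiquitin ligase gene RNF166 by 1.22 (SE 0.26, adjusted p = 0.0404) and the phosphoinositide phosphatase gene MTMR4 by 1.08 (SE 0.18, adjusted p = 0.0258). SNAR-E, a small noncoding RNA bound by NF90, read 9.79, 10.12, 10.86 and 9.80 against 8.87, 8.86, 9.04 and 8.70 (difference -1.27, SE 0.18, adjusted p = 0.0188). The snaR genes have near-identical copies, and which copy gave the signal is uncertain.

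**Figure D4:**
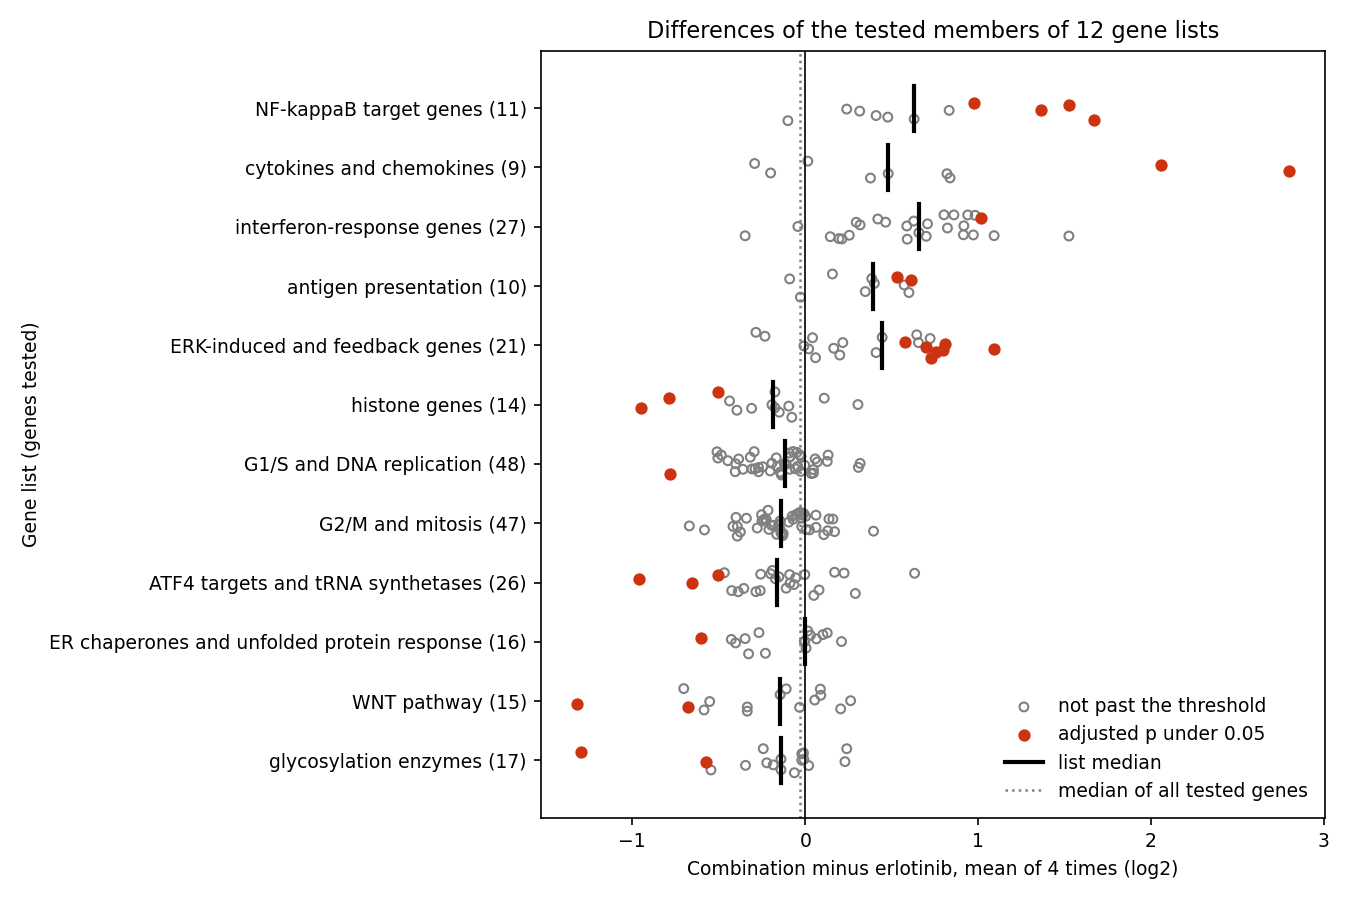
Combination minus erlotinib, mean of the 4 times (log2), for each tested member (point) of 12 gene lists; red points passed at an adjusted p under 0.05, black bars are list medians and the dotted line is the median of all tested genes (-0.03). The ERK-induced list has the most red points (7 of 21), and the interferon list has a median of 0.66 with 1 red point of 27.

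No gene passed by limma in the lists of autophagy (17 tested), ribosome biogenesis (27), the mitochondrial respiratory chain (19), DNA damage repair (15), D-type cyclins and CDK inhibitors (8), receptor tyrosine kinases and EGFR ligands (8), adhesion and surface proteins (16), mesenchymal markers (5), aryl hydrocarbon receptor and transporter genes (9), lung epithelial markers (5) and markers of other cells (3). The nearest to passing were BOP1, a ribosome assembly factor (difference -0.90, SE 0.21, adjusted p = 0.0587), and ABCC3, an organic anion exporter (difference 0.70, SE 0.17, adjusted p = 0.0622). At the threshold itself, ARHGEF39 (-0.86, adjusted p = 0.0494) and JMJD8 (-0.65, adjusted p = 0.0498) lay just inside, and FAM217B (-0.57, adjusted p = 0.0503) and CCN3 (1.37, adjusted p = 0.051) just outside.

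The size of the differences over time depended on the scale. Of the 83 genes that rose, 3, 27, 21 and 32 had their largest gain at 6, 12, 24 and 48 h, but on centred values these counts were 25, 9, 22 and 27. Of the 129 that fell, 57, 6, 41 and 25 had their largest drop at these times, and 21, 32, 49 and 27 on centred values. Relative to the median of all genes at each time, the median rise was 0.67, 0.73, 0.75 and 0.90 and the median fall -0.55, -0.72, -0.80 and -0.61. Whether the difference changed per doubling of time was tested with limma over the 8 arrays, and 0 of 5820 genes passed (smallest adjusted p 0.0714). In that test 770 had an unadjusted p under 0.05, and 693 of them had a positive slope. A positive slope can be a rise that grew or a fall that shrank. These slopes are on deposited values, where the median difference of all genes was -0.27 at 6 h and 0.14 at 12 h. On centred values 0 genes passed as well, and the unadjusted count was not made. Leaving out the combination array at 12 h gave 24 genes and leaving out that at 48 h gave 2. The genes named here had the smallest p-values of that limma test, which need not be the steepest slopes. CFB, a complement factor, read 4.32, 5.48, 6.88 and 7.80 with the combination and 5.29, 5.16, 5.52 and 6.02 with erlotinib (0.93 per doubling, SE 0.12, adjusted p = 0.0714). SAMD9, an antiviral factor, read 5.72, 6.82, 8.11 and 8.51 against 6.77, 6.91, 6.89 and 6.91 (0.93, SE 0.12, adjusted p = 0.0714). DNER (0.73) and CCN3 (0.74) had the same adjusted p. In the other direction CD79A changed by -0.67 per doubling (SE 0.14, adjusted p = 0.157), with 7.30, 7.47, 8.13 and 9.03 under erlotinib and 7.10, 7.36, 6.79 and 7.01 under the combination, and ADGRF1 by -0.66, METTL26 by -0.49, TM4SF18 by -0.46 and UBALD2 by -0.52, all with an adjusted p of 0.157.

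The single untreated array was closer to the erlotinib arm for most of these genes. It lay below all 4 combination values in 78 of the 83 genes that rose and inside the erlotinib range in 55. In the 129 that fell it lay above all 4 combination values in 123 and inside the erlotinib range in 77. Over all 5820 tested genes it lay below all 4 combination values in 1120 and above all 4 in 1385. It was inside the erlotinib range in 3636 of the 5820, a share near that of the genes that rose or fell. Median differences from untreated were 0.67 for the combination and -0.09 for erlotinib over the genes that rose, and -0.67 and 0.03 over those that fell. These genes were chosen by the gap between the arms, so the counts are a description, and the untreated array has no time or replicate of its own.

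The number of genes that passed rested on the number of arrays and on several single arrays. With the 8 arrays alone (3 residual degrees of freedom) 6 genes passed, ICAM1, PXDC1, SNAPC1, INPP5A, GALNT11 and HSPA2, all among the 212. Each of the 212 had an unadjusted p under 0.05 in that limma fit. The 8 arrays are part of the 11 by which the 212 were chosen, so these p-values are no separate check. Leaving out 1 array at a time gave 322, 19, 11 and 34 genes without the erlotinib arrays at 6, 12, 24 and 48 h, 294, 31, 6 and 34 without those of the combination, and 66, 41 and 26 without those of quinacrine at 6, 12 and 24 h. H2AX, ICAM1, IL24, INPP5A, PXDC1 and SNAPC1 passed in all 11 of these fits. IFNGR2, MICB and RXRA passed in 10, failing without the combination array at 24 h. CXCL16, HSPA2 and SKP2 passed in 9, CYLD in 7, GALNT11 and BOK in 6, CCL2, IRF1, FAM83H, SNAR-E and XPOT in 5, and the other genes named above in 4 or fewer, except PRKAG1 (7) and NOCT (5). All 212 kept their sign in every one of the 11. Each of them had the same direction at all 4 times, so leaving out 1 array could hardly turn it. The kept signs are therefore no check of these genes.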

How the data were processed

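RNA of one cell line was hybridised to 12 arrays, 1 per treatment and time. Per the submitters' processing notes the authors used Affymetrix Expression Console 1.30 and RMA (background correction, quantile normalization and summary per probe set), and the labels name hg19 annotation. The deposited values are log2 levels with 2 decimals and were used as deposited.

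Among 53617 rows, the platform annotation gave 1 symbol to 23871, several to 1842 and none to 27904. RefSeq matched 22569 of the named rows, and 90 symbols were updated. Of 22395 named genes, 632 had several rows and the row with the highest mean was used. Genes with a mean of at least 5 over the 12 arrays were tested, 5820 or 26.0%. That mean includes the arrays compared, so a gene high in 1 arm only could pass through that arm.

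The difference was fitted with limma 3.58.1 (lmFit, eBayes) in R 4.3.3 on 11 treated arrays, with treatment (3 levels) and time (4 levels) as factors, 5 residual degrees of freedom and Benjamini-Hochberg adjustment over 5820 genes. The residual is the departure from additive treatment and time, not replicate error. The change with time used treatment, log2 time and their product on 8 arrays, with 4 residual degrees of freedom. On simulated arrays with 200 of 5820 genes changed, the first fit recovered 41.5% of genes changed 1.5-fold and 84.5% of those changed 2-fold. The second recovered 45% of genes changed 1.5-fold and 84% of those changed 2-fold per doubling of time, a larger change over the whole course. Some calls were false. At 1.5-fold and 2-fold the first fit called 91 and 176 genes, of which 83 and 169 were changed. The second called 91 and 179, of which 90 and 168 were changed. With none changed, neither called a gene. Each setting was a single simulated draw. The simulated errors were independent and held no shift of a whole array, unlike the combination array at 6 h. Arrays carry no read depth, and their number limits the precision.

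The 36 gene lists, the members and the tests were chosen with earlier results of these data known, and no set test was made. The rule for named genes took, among genes that passed and kept their direction, the 12 largest rises and falls, the 10 of each whose smallest difference over the 4 times was largest, the 5 smallest p per direction for the change with time, each list member that passed (otherwise the 2 with the smallest p) and 9 genes of interest. It gave 104 genes, 60 of which passed, and genes named outside it are marked. Alternatives covered the filter, rows, scaling, prior variance, array weights, the arrays and times used and leaving out each array. Upstream windows came from RefSeq (GRCh38.p14). Figures were drawn with matplotlib 3.10.9.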

Additional observations from a re-analysis of the deposited data

Results flagged for a closer look

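With 4 arrays per arm, 214 sets of 4 values were checked for an array far from the other 3, and 13 were found, where chance alone gives about 1 in 20. The combination array at 6 h was far from the other combination arrays in its median over tested genes (6.18), in its interquartile range (2.04) and in its median correlation with the other arrays (0.955). It was also low for BECN1 (7.0), CDH1 (10.08), ROR1 (6.27) and SUPT16H (8.31). The combination array at 12 h was lowest for H2AX (7.64) and highest for POLH (5.95), and that at 48 h was lowest for RB1 (6.49) and highest for SNAI2 (8.70). In the erlotinib arm, TOP3A was low at 12 h (3.93) and SAMD9 at 6 h (6.77, where the other 3 values were 6.89 to 6.91). The H2AX and POLH values lay on the same side of the erlotinib arm as the other combination values.

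Rows with no single gene symbol lay outside the report. When all rows of the table were tested together, 9 passed, 3 of them without a single symbol. One of these differed by -1.65 (8.58, 8.38, 8.48 and 7.84 with erlotinib, 6.85, 6.85, 6.63 and 6.34 with the combination, limma adjusted p = 0.0162). The other 2 held identical values and differed by -1.51 (11.21, 11.15, 11.46 and 11.31 against 9.81, 9.64, 9.74 and 9.90), so they count as 1 signal. The untreated array read 8.25 and 11.2 for these signals.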

How the results depend on the processing

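The count of 212 genes (83 higher, 129 lower) became 6 (3 and 3) with the 8 arrays alone, 51 (23 and 28) with no filter, 9 (4 and 5) over all rows, 439 (223 and 216) with centring, 461 (225 and 236) with cyclic loess, 380 (202 and 178) with array weights, whose estimation stopped before it converged, 10 (6 and 4) against a 1.2-fold minimum, 34 (11 and 23) over 6, 12 and 24 h and 437 (298 and 139) over 12, 24 and 48 h. With a prior variance that follows the mean, 127 were higher. Leaving out 1 array gave 6 to 322 genes, 4 to 205 higher and 2 to 117 lower. Centring and loess kept 203 and 207 of the 212, array weights 209 and the last 3 times 185. No alternative turned the sign of any of the 212 that it tested. As each already had the same direction at all 4 times, a kept sign adds little. Why the counts moved with scaling and with single arrays was not tested.

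Genes higher at all times numbered 536, and 1657 with no filter, 805 centred, 856 with loess, 1653 without 6 h and 139 at a difference of at least 0.2 each time. Genes lower at all times numbered 834, and 1924 with no filter and 263 at 0.2. Genes above without overlap, 233, became 387 centred and 406 with loess. The change with time, 0 genes, became 24 and 2 without the combination arrays at 12 h and 48 h, within a leave-one-out range of 0 to 24.

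Some genes that did not pass changed sign. Over 6, 12 and 24 h ADGRF1 was at 0.17 and CCND1 at -0.013, as without either array at 48 h. Over 12, 24 and 48 h EGFR was at 0.18, MYC at 0.093 and NFKB1 at 0.21. With array weights EGFR was at 0.10, MYC at 0.054 and NFKB1 at 0.16. With centring MYC was at 0.026 and NFKB1 at 0.016, and with loess 8e-04 and 0.022. Leaving out 1 array gave ADGRF1 -0.48 to 0.17, CCND1 -0.013 to 0.41, EGFR -0.18 to 0.13, MYC -0.20 to 0.083, NFKB1 -0.22 to 0.16 and RELA -0.13 to 0.022. No paired analysis was possible because the labels number no replicates, apart from the match by time that every result already uses.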
